A study of Solanum tuberosum with 5 samples.

Results

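Among the sequenced tags of potato plantlets, 10 stood transiently high after 2 short days: they were at least 2 times as abundant there as in each of the other 4 libraries. The plantlets were of the genotype labelled E26 and had all grown in long days (LD) for 3 weeks. Some then changed to short days (SD), and the rest stayed in LD. The groups were SD day 2, SD day 5, LD day 0 (taken before the change), LD day 2 and LD day 5, each 1 library of polyadenylated RNA from whole plantlets. With no replicates, every difference below compares 2 libraries, not 2 conditions, and in whole plantlets fewer cells of a type and less RNA per cell cannot be told apart.

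Short days favour tuber formation in potato. Leaves sense the length of the night through phytochrome and the circadian clock, and a mobile protein of the FLOWERING LOCUS T family carries the signal to the stolon tips, where tubers form. In a digital gene expression library a transcript that holds a restriction site, here CATG, is represented by a short tag next to it. The number of tags measures the abundance of the transcripts that carry the tag. The files give tags without gene names, and tags were not matched to transcripts here. Members therefore carry numbers, P1 to P10, in order of peak height, and no gene role is given. Whether 2 of them come from 1 transcript, or 1 of them from several, was not tested.

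The members were chosen by their values. A tag had to appear in all 5 libraries with 10 TPM or more in at least 1, where TPM, the unit of the files, is tags per 1000000 tags with no division by transcript length. With 1 TPM added to each value, SD day 2 then had to be at least 2 times each of the other 4. The files hold 27553 different tags; 8910 appear in every library, and 6208 of these met the floor. The whole rule was met by 10 of the 6208 tags (0.161%). All 10 met the floor in SD day 2. P3, P5, P6 and P8 were under 10 TPM in all the other libraries and so could enter only where they were high. Depth hardly differed between libraries: totals ran from 3492458 to 3688118 tags, and 10 TPM corresponds to 34.9 to 36.9 tags.

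Peak heights in SD day 2 lay near the threshold of the rule. Peak height, the SD day 2 value over the highest other value with 1 TPM added to both, ran from 2.08 to 2.84 with a median of 2.28. These values chose the members and are a description. No tag reached a height of 3, and 3 tags (P1, P2 and P3) reached 2.5. For 2 of the 10, P1 and P2, the exact 95% counting interval of the plain ratio to the next highest library lay wholly above 2. For the other 8 it included 2, so counting error alone spans the threshold. The 3 members just inside it were P8, P9 and P10, at heights of 2.13, 2.10 and 2.08. The 3 tags just outside stood at 1.94, 1.93 and 1.89. They had 16.3, 25.95 and 24.8 TPM in SD day 2, against highest other values of 7.90, 13.0 and 12.7 TPM. A height of 1.5 was reached by 131 tags.

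**Figure D1:**
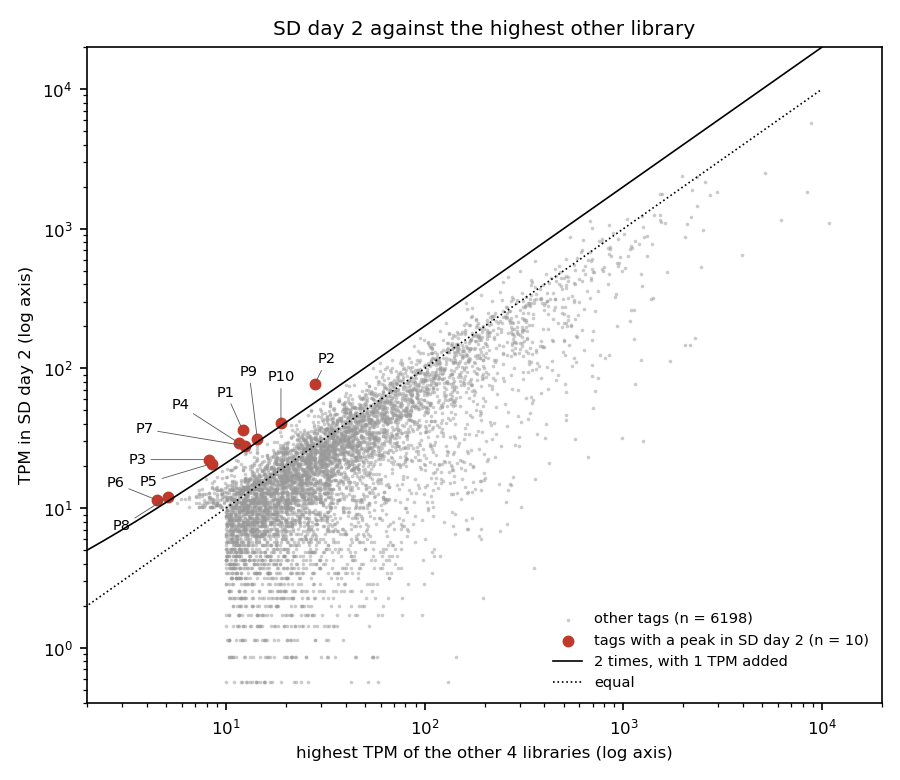
Each point is 1 of 6208 tags, with its TPM in SD day 2 on the vertical axis against its highest TPM in the other 4 libraries on the horizontal axis, both logarithmic. The 10 members, named, lie just above the solid line of 2 times, and none lies above 76.98 TPM in SD day 2.

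By construction, all 10 members were called higher in SD day 2 than in each other library. A tag was called when the log2 ratio with 1 TPM added was at least 1 in size, the higher value was 10 TPM or more and the counting interval of the plain ratio excluded 1. Of the 6208 tags, 18.3% were called higher in SD day 2 than in SD day 5, 7.12% higher than in LD day 0, 6.46% higher than in LD day 2 and 14.2% higher than in LD day 5. The rule used these contrasts, so nothing is read from the members' count.

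The members were of low to moderate abundance. In SD day 2 they ran from 11.4 TPM (P6, 40 tags) to 77.0 TPM (P2, 270 tags), with a median of 28.7 TPM, against a median of 17.7 TPM over the 6208 tags. Between 12.5% (P2) and 66.5% (P6) of the 6208 tags were more abundant in that library. In the other libraries the members' medians ran from 7.015 TPM (SD day 5) to 11.415 TPM (LD day 0). There the medians over the 6208 tags ran from 18.04 TPM (SD day 5) to 19.79 TPM (LD day 5). The rule chose tags high in SD day 2 and capped their other values, so neither comparison of medians is a result about the members. The 10 tags summed to 308.8 TPM in SD day 2 (95% counting interval 290.7 to 327.7). In SD day 5 the sum was 86.5 TPM (77.0 to 96.8). The long-day sums were 114.1 TPM before the transfer (103.3 to 125.8), 100.4 TPM after 2 more days (90.2 to 111.4) and 75.6 TPM after 5 (67.0 to 85.1). The members thus took 0.0607% of the listed total of SD day 2, against 0.0128% to 0.0216% in the other libraries. The rule put SD day 2 highest in every member, so the higher sum and share there are a description and no result.

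**Figure D2:**
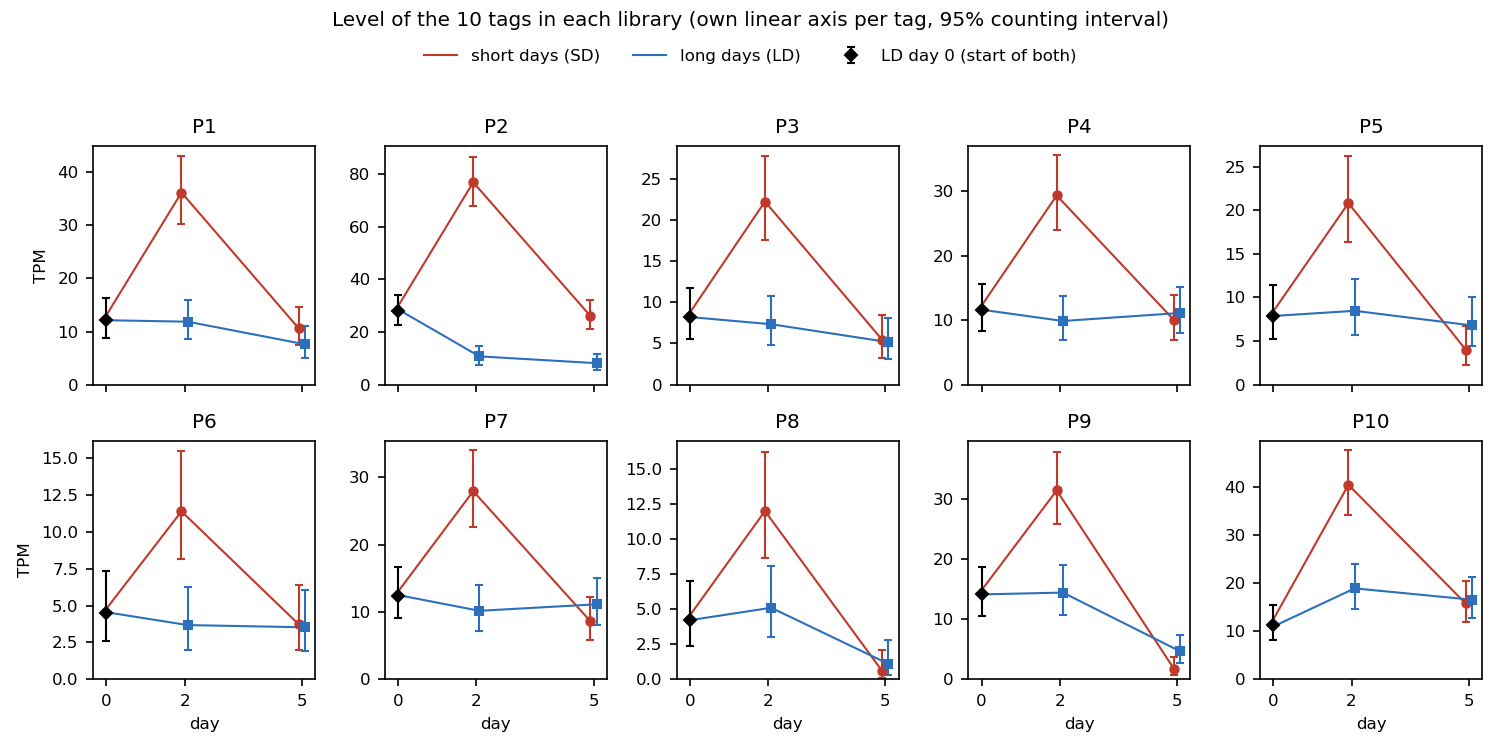
TPM of each of the 10 members by day, on a linear axis of its own, for plantlets moved to short days (red) and kept in long days (blue), both starting from the LD day 0 library (black). Bars are 95% counting intervals, and the SD day 2 point stands above every other point of its panel while the day 5 points lie close together in most panels.

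P1 had the greatest height. It stood at 36.2 TPM in SD day 2, against 10.6 TPM in SD day 5; the long-day series read 12.1, 11.9 and 7.59 TPM at days 0, 2 and 5. SD day 2 was 2.99 times the next highest library, LD day 0 (interval 2.10 to 4.33). It alone was high, and the remaining 4 libraries lay within a factor of 1.60 of each other.

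P2 was the most abundant member. It stood at 77.0 TPM in SD day 2, against 26.1 TPM in SD day 5; the long-day series read 27.9, 10.7 and 8.13 TPM at days 0, 2 and 5. In long days both later libraries were below day 0, whereas SD day 5 stood near the day 0 level. SD day 2 was 7.18 times LD day 2 (interval 5.10 to 10.4) and 2.76 times LD day 0 (interval 2.18 to 3.51).

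P3 and P6 were low tags of like shape. P3 stood at 22.2 TPM in SD day 2, against 5.44 TPM in SD day 5; the long-day series read 8.17, 7.33 and 5.15 TPM at days 0, 2 and 5. P6 stood at 11.4 TPM in SD day 2, against 3.72 TPM in SD day 5; the long-day series read 4.51, 3.67 and 3.52 TPM. In both, SD day 2 alone stood apart, at 2.72 times LD day 0 for P3 (interval 1.76 to 4.32) and 2.53 times for P6 (interval 1.38 to 4.84). The P6 values outside SD day 2 rest on 13 to 16 tags each.

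P4 and P7 had, with P6, the most even levels outside the peak. P4 stood at 29.4 TPM in SD day 2, against 10.02 TPM in SD day 5; the long-day series read 11.6, 9.87 and 11.1 TPM at days 0, 2 and 5. P7 stood at 27.9 TPM in SD day 2, against 8.59 TPM in SD day 5; the long-day series read 12.4, 10.2 and 11.1 TPM. The other 4 libraries spanned a factor of 1.17 in P4 and 1.44 in P7. SD day 2 was 2.54 times LD day 0 in P4 (interval 1.75 to 3.74) and 2.25 times in P7 (interval 1.56 to 3.29).

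P5 and P10 were next highest in LD day 2. P5 stood at 20.8 TPM in SD day 2, against 4.01 TPM in SD day 5; the long-day series read 7.89, 8.46 and 6.78 TPM at days 0, 2 and 5. P10 stood at 40.5 TPM in SD day 2, against 15.8 TPM in SD day 5; the long-day series read 11.3, 18.9 and 16.5 TPM. P10 was the only member of the 10 whose lowest value was that of LD day 0. SD day 2 exceeded LD day 2 by 2.46 times in P5 (interval 1.59 to 3.90) and by 2.14 times in P10 (interval 1.59 to 2.91).

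P8 and P9 were also next highest in LD day 2. In long days 8 of the 10 members were lower on day 5 than on day 2, against 47.5% of all tags that met the floor. Over the 1153 tags highest in SD day 2, LD day 2 was next highest in 25.4% and LD day 5 in 13.2%. A choice by SD day 2 can therefore set LD day 2 above LD day 5. The count of 8 is thus a description, for which no test was made, and no result about the members. In P8 and P9 alone the counting interval of the ratio of LD day 5 to LD day 2 excluded 1. P8 stood at 11.97 TPM in SD day 2, against 0.57 TPM in SD day 5 (2 tags); the long-day series read 4.23, 5.08 and 1.08 TPM at days 0, 2 and 5, the last from 4 tags. P9 stood at 31.4 TPM in SD day 2, against 1.72 TPM in SD day 5 (6 tags); the long-day series read 14.1, 14.4 and 4.61 TPM, the last from 17 tags. SD day 2 was 2.36 times LD day 2 in P8 (interval 1.33 to 4.35) and 2.18 times in P9 (interval 1.55 to 3.10). Against SD day 5 it was 21 times as high in P8 (interval 5.44 to 178.3) and 18.2 times in P9 (interval 8.12 to 50.8), the greatest such ratios among the 10. The rule used this contrast and needed a listed value. The SD day 5 value of P8 is the lowest that library lists, and the interval takes no account of that limit.

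The level at SD day 5 was compared with LD day 5, a pair that the rule did not compare. By the call rule 1 of the 10 members was higher in SD day 5 and 0 were lower, against 2.37% higher and 6.81% lower over the 6208 tags. No p-value can be had from 1 library per group. The called member was P2, at 26.1 TPM in SD day 5 and 8.13 TPM in LD day 5, which is 3.21 times as high (interval 2.10 to 5.01). In 8 of the 10 the counting interval of the ratio included 1, a count for which the share over the 6208 tags was not computed. Few tags make an interval wide, so these intervals do not place the members at the LD day 5 level. Besides P2 and these 8, the remaining member was P9, at 1.72 TPM in SD day 5 and 4.61 TPM in LD day 5. Its ratio was 0.373 (interval 0.120 to 0.991), and it missed the call because both values were under 10 TPM. With TMM or median-of-ratios scaling that interval included 1. The median log2 ratio was -0.10 in the members and -0.10 over the 6208 tags, and the members' sign turned with the scaling, so no direction is given. The summed members in SD day 5 were at 1.14 of the LD day 5 sum (interval 0.968 to 1.35), and at 0.895 of it without P2 (interval 0.741 to 1.08).

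Against LD day 0, another pair that the rule did not compare, SD day 5 was lower in 9 of the 10 members, against 50.4% of the 6208 tags. In 3 of the 9 the counting interval excluded 1, and the share of such intervals over the 6208 tags was not computed. Over the 1153 tags highest in SD day 2, LD day 0 was next highest in 49.5% and SD day 5 in 11.9%. A choice by SD day 2 can therefore set LD day 0 above SD day 5. The count of 9, and the median and sums below, are thus no result about the members. By the call rule 0 members were higher and 1 was lower, against 22.9% higher and 22.6% lower over the 6208 tags. The called member was P9, at 1.72 TPM in SD day 5 and 14.1 TPM in LD day 0, 8.19-fold lower (interval 3.52 to 23.4). P8 was at 0.57 TPM in SD day 5 and 4.23 TPM in LD day 0. Its ratio was 0.135 (interval 0.0150 to 0.582), and it missed the call because both values were under 10 TPM. P5 was at 4.01 TPM in SD day 5 and 7.89 TPM in LD day 0, and its ratio was 0.508 (interval 0.247 to 0.998). That interval included 1 with TMM and with median-of-ratios scaling. In the other 7 the interval included 1 on the deposited scale. P10 alone stood above day 0, at 15.8 TPM in SD day 5 and 11.3 TPM in LD day 0, and its ratio was 1.40 (interval 0.913 to 2.15). The median log2 ratio was -0.35 in the members and -0.01 over the 6208 tags. The summed members in SD day 5 were at 0.758 of the LD day 0 sum (interval 0.650 to 0.881), and at 0.879 of it without P8 and P9 (interval 0.749 to 1.03). Both day 5 comparisons share the SD day 5 library.

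**Figure D3:**
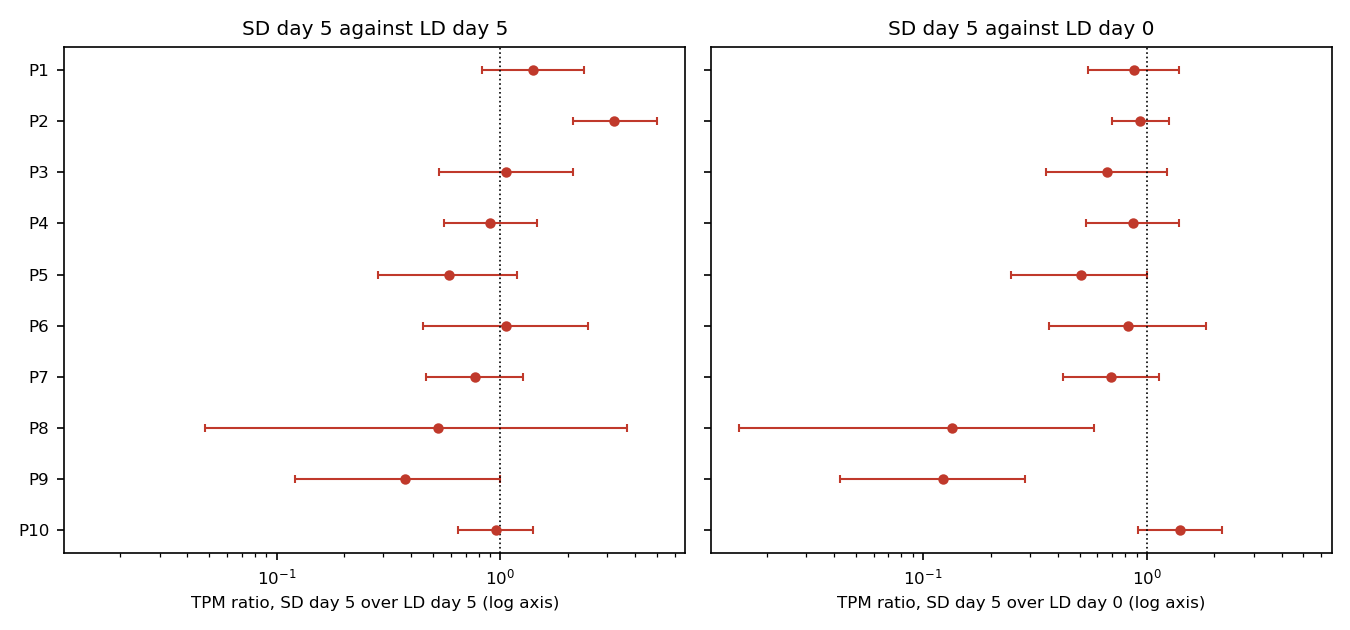
Ratio of TPM in SD day 5 over LD day 5 (left) and over LD day 0 (right) for each member, on a logarithmic axis with 95% counting intervals and a dotted line at 1. In the left panel only P2 lies wholly above 1 and only P9 wholly below it; in the right panel P5, P8 and P9 lie below 1 and 7 intervals include 1.

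The long-day libraries were compared with each other for the same tags. P3, P5, P6 and P8, under 10 TPM in all of them, could not be called there, nor in the day 5 comparisons above, so the counts over 10 are no result about the members. Between LD day 2 and LD day 0, 0 members were called higher and 1 lower, against 17.8% and 12.6% of the 6208 tags. The 1 was P2, at 10.7 TPM in LD day 2 and 27.9 TPM in LD day 0, 2.60-fold lower (interval 1.77 to 3.89). For LD day 5 set against day 0, 0 were called higher and 2 lower, against 22.7% and 17.7%. These were P2, 3.43-fold lower (interval 2.26 to 5.35), and P9, 3.06-fold lower (interval 1.73 to 5.65). For LD day 5 set against LD day 2, 0 were called higher and 1, again P9, lower, 3.12-fold (interval 1.77 to 5.76), against 6.04% and 7.81%. P8 was at 1.08 TPM in LD day 5 and 4.23 TPM in LD day 0, and its ratio of 0.255 (interval 0.0620 to 0.805) lay under the floor of the call rule.

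Outside SD day 2, the highest of a member's other 4 values was 1.17 to 8.91 times the lowest, with a median of 1.64. The median over the 6208 tags was 2.60. That factor was under 2 in 6 members (P1, P3, P4, P6, P7 and P10) and in 31.6% of the 6208 tags, a description for which no test was made. The rule caps a member's other 4 values at about 0.5 of SD day 2. Only 18.6% of the 6208 tags were highest in that library. The comparison with all tags is therefore no result about the members, and the part of the rule in it was not tested.

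The next highest library was LD day 0 in 6 members and LD day 2 in 4, and SD day 5 or LD day 5 in none of the 10. Over the 1153 tags that were highest in SD day 2, the next highest was SD day 5 in 11.9%, and a long-day library of day 0, 2 or 5 in 49.5%, 25.4% and 13.2%. Of the 4 libraries, LD day 0 kept the most tags out of the group. Without it, 243 tags had SD day 2 at 2 times or more of the remaining 3 libraries. In the 233 tags so added, SD day 2 stood at a median of 1.07 times LD day 0 and was below LD day 0 in 95. Leaving out LD day 2 in place of it gave 38 tags, leaving out SD day 5 gave 19 and leaving out LD day 5 gave 11.

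With values as deposited, fewer tags peaked in SD day 2 than in any other library, an order that did not hold against LD days 2 and 5 under every scaling. At a threshold of 1.5 times SD day 2 had 131 tags, more than the 112 of LD day 5 and fewer than the 140 of LD day 2. The same rule gave 44 tags for SD day 5, 191 for LD day 0, and 19 each for LD days 2 and 5. With TMM, SD day 2 had 10 tags, LD day 2 had 19 and LD day 5 had 15. With median-of-ratios factors these were 12, 15 and 12, and after rescaling to the listed tags they were 21, 16 and 14. Of the tags highest in SD day 2, 0.867% reached 2 times each other library. The share was 3.17% of those highest in SD day 5, and 12.6%, 1.95% and 1.62% of those highest at days 0, 2 and 5 of the long-day series. The median height of the tags that met the rule was 2.28 in SD day 2 and 2.22 in SD day 5, and 2.43, 2.30 and 2.32 at days 0, 2 and 5 of the long-day series. The greatest height was 2.84 in SD day 2 and 9.06 in SD day 5, and 6.70, 6.58 and 3.72 in that series, but these maxima are taken over unequal numbers of tags. The mirrored rule, each other library at 2 times SD day 2 or more, gave 390 tags. The listed values of SD day 2 summed to 50.9% of its total, the lowest of the 5 libraries. Rescaling to the listed tags changed the SD day 2 count from 10 to 21, as given above, and a cause was not tested.

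**Figure D4:**
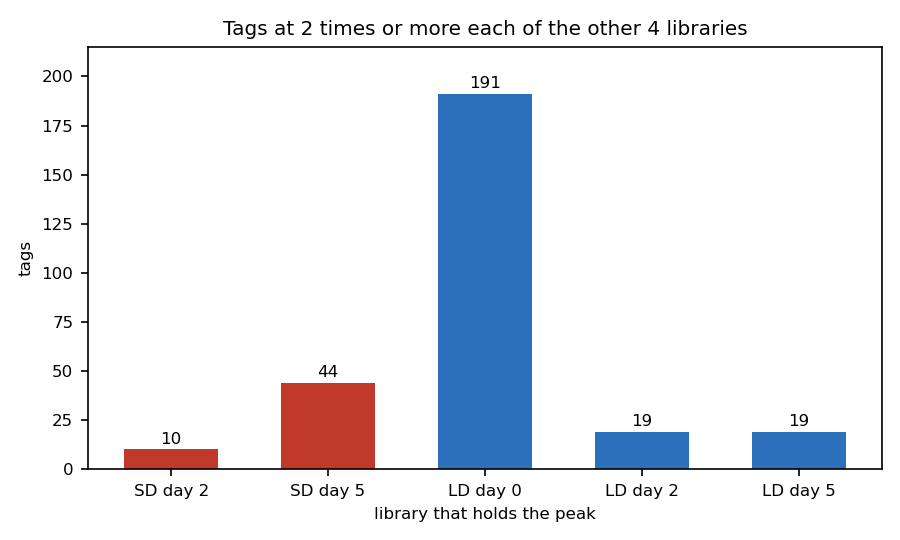
Number of tags, of 6208, whose value in the named library was at least 2 times each of the other 4 with 1 TPM added, for the SD libraries (red) and the LD libraries (blue). SD day 2 had 10, against 191 in LD day 0.

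The rule used neither the letters of a tag nor its place in the files. The 17 bases after CATG held 29.4% to 41.2% G or C in the members, with a median of 35.3%, the same as over the 6208 tags. Among the 45 pairs of members the closest differed at 9 bases. In all 27553 tags, 1 tag differed from a member at a single base. It neighboured P9 and stood at 8.27 TPM in SD day 2, against 2.00 TPM in SD day 5; its long-day series read 4.51, 9.03 and 1.90 TPM at days 0, 2 and 5. Like P9 it was lower on day 5 than on day 2 in both photoperiods, but its SD day 2 value was not above that of LD day 2. The files list the shared tags in 1 order, whose meaning the sources used here do not give, and no 2 members were closer than 47 rows among the 8910 shared tags.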

How the data were processed

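Tag libraries of poly(A) RNA were prepared by an Illumina Gene Expression kit, per the labels' protocols. The deposited values are headed TPM by the authors and are tags per 1000000 tags of the library (RPM). This was read from the values, which are whole multiples of 1 step within 0.006 TPM, apart from 2 tags of LD day 5 and 3 of SD day 2, none of them a member. The lowest value is 2 steps. Aligner, reference and filters: not given in the sources used here.

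Whole tags were recovered from the step. Intervals are exact Clopper-Pearson intervals of a ratio conditional on the summed tags, or of a share of the library total for sums (scipy 1.17.1). Plotted intervals of levels are exact Poisson intervals. All cover counting error only: the protocol names no molecular identifiers, so tags cannot be taken as independent molecules. No count test or p-value is possible with 1 library per group. Unlisted tags were not compared. Every member was named, with the 3 tags just outside the threshold. The members, lists and comparisons were chosen with earlier results of these data known. The rule and the intervals were tried on simulated Poisson counts. These hold no variation between plantlets or libraries beyond counting error, so they say nothing about such variation. Alternatives were 3 scalings (TMM and median-of-ratios formulas over the shared tags, and rescaling to the listed tags), pseudocounts of 0.1 and 5 TPM, no floor, a floor of 50 TPM, leaving out each other library, and a threshold of 3 times; 1.5 times was added after seeing the data.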

Additional observations from a re-analysis of the deposited data

Results flagged for a closer look

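P9 stood higher in SD than in LD on day 2 and lower on day 5. Its ratio of SD day 5 to LD day 5 was 0.373 (interval 0.120 to 0.991), whereas at day 2 it was 2.18 (interval 1.55 to 3.10). The day 5 interval included 1 with TMM scaling (0.131 to 1.08) and with median-of-ratios scaling (0.138 to 1.14). No test was made of the difference between the days, with 1 library behind each value, and the day 2 direction is fixed by how the tag was chosen.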

How the results depend on the processing

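All 10 members met the rule with a pseudocount of 0.1 TPM, with no floor and with each of the 3 scalings, and 4 (P1, P2, P3 and P4) with a pseudocount of 5 TPM. The number of tags with a peak was 4 with a pseudocount of 5 TPM, 1 with a floor of 50 TPM, 21 after rescaling to the listed tags, 243 without LD day 0, 38 without LD day 2, 19 without SD day 5, 0 at a threshold of 3 times and 131 at 1.5 times. It stayed at 10 with TMM scaling. With no floor it was 15, and with median-of-ratios factors 12. A pseudocount of 0.1 TPM, and leaving out LD day 5, each gave 11. At 3 times no tag was left for the other results.

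Calls among the tags chosen anew under each setting moved as follows, where the change in their number is by itself a cause of change. Leaving a library out of the rule also lets in tags high in it. Without LD day 0, 243 tags passed. The 204, 208 and 150 lower calls below are against that library, so they follow in part from the choice. Over all tags that met the floor such calls were 22.6%, 17.7% and 12.6%. For SD day 5 against LD day 5, higher calls were 0 with a floor of 50, 2 after rescaling, 15 without LD day 0, 7 without SD day 5 and 7 at 1.5 times. Lower calls were 1 with no floor, 5 without LD day 0 and 4 at 1.5 times. For SD day 5 against LD day 0, higher calls were 1 after rescaling, 1 without LD day 2, 1 without LD day 5, 3 without SD day 5 and 1 at 1.5 times. Lower calls were 0 with a pseudocount of 5 and with a floor of 50, 2 with no floor, 204 without LD day 0, 3 without LD day 2 and 33 at 1.5 times. For LD day 5 against LD day 0, higher calls were 1 after rescaling, 1 without LD day 5 and 2 at 1.5 times. Lower calls were 1 with a pseudocount of 5, 0 with a floor of 50, 3 with no floor and 4 after rescaling. They were 208 without LD day 0, 4 without LD day 2, 4 without SD day 5 and 44 at 1.5 times. For LD day 2 against LD day 0, higher calls were 1 after rescaling, 10 without LD day 2, 1 without LD day 5 and 1 at 1.5 times. Lower calls were 0 with a floor of 50, 2 after rescaling, 150 without LD day 0, 2 without SD day 5 and 8 at 1.5 times.

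The median log2 ratio of SD day 5 over LD day 5, -0.10, turned to 0.17 with a pseudocount of 5, 1.57 with a floor of 50, 0.013 with TMM, 0.083 with median-of-ratios factors, 0.047 after rescaling, 0.15 without LD day 0 and 0.59 without SD day 5. That of SD day 5 over LD day 0, -0.35, turned to 0.41 without SD day 5 and moved to -2.09 without LD day 0. For these the cause was not tested, and leaving a library out of the rule lets in tags high in it. The log2 ratio of P2 between SD day 5 and LD day 5 stayed between 1.24 and 1.75 under the pseudocounts and scalings, with its interval above 1. No paired analysis was possible because each group is 1 library. Depth limits P8 and P9 most, whose SD day 5 values rest on 2 and 6 tags.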

Other observations

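The rule could not reach tags that some library does not list. Of 7475 tags at 10 TPM or more in SD day 2, 560 were listed in no other library, and 2441 were listed in 1 to 3 of the other 4. In 132 of the 2441 (5.41%), SD day 2 was at least 2 times each library that listed the tag. The same share was 6.28% for SD day 5, and 8.94%, 7.80% and 5.51% at days 0, 2 and 5 of the long-day series. An unlisted value was not read as 0, so none of these is counted as a peak.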
